A study of Mus musculus with 12 samples.

Results

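Interferon-stimulated genes were followed in mouse neutrophils, as a set of 34 genes that cells switch on when interferon reaches them. Members were the rows of the deposited count table whose symbol was on that list. A row was found for 31 of the 34 among 23621 symbols, and 29 had enough reads to be tested, out of 10604 genes tested in all. Ifit1, Ifit2 and Ifit3 were not analysed here, and Mx1 and Ifi44 lay below the filter on low counts. The list and its role groups were chosen with earlier results of these data known.

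The 12 libraries were made from neutrophils. All mice were female, Balb/c and 8 weeks old, with no transgene, deletion or drug named in the labels. LDN are low-density neutrophils from the peripheral blood of mice bearing liver metastases. HDN are high-density neutrophils from the blood of such mice. Naive libraries are neutrophils from the bone marrow of naive mice, and each group held 4 libraries. On a density gradient LDN stay with the mononuclear cells while HDN sink. Tissue, tumour and a tag in the column names of LDN and HDN all differ from Naive together, so they cannot be told apart in either comparison with Naive. The sources used here do not give the tumour cells or the way the neutrophils were purified. The labels do not say that replicates came from separate animals, and p-values therefore cover only how far these libraries differ, which may be partly technical.

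Type I interferons bind a receptor of the subunits IFNAR1 and IFNAR2, and the kinases JAK1 and TYK2 then activate transcription factors. STAT2 and IRF9 are subunits of one of these, ISGF3, which binds the interferon-stimulated response element (ISRE) before many antiviral genes. Interferon gamma acts through a different site, the gamma-activated sequence (GAS), and through IRF1, and the guanylate-binding proteins are among its strongest targets. Neutrophils respond to both kinds of interferon, and interferon signatures in neutrophils are known from infection, lupus and tumours.

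Total counts per library were 23181686 to 26456768 in LDN, 20049857 to 30044508 in HDN and 18113922 to 27741885 in Naive, and 3 reads were worth 0.0954 to 0.153 CPM (counts per 1000000, after TMM scaling of library sizes). HDN 7 stood apart in its TMM scaling factor, 1.284, where the other 11 lay at 0.8248 to 1.089. Neutrophil genes were abundant in every group, with S100a8 averaging 74348.1 CPM in LDN, 35724.9 CPM in HDN and 53258.0 CPM in Naive. The 12 neutrophil genes summed to 196400.8 to 258281.1 CPM in LDN, 79640.8 to 130844.1 CPM in HDN and 204800.1 to 238457.4 CPM in Naive. Of these, 8 were higher and 1 lower in LDN than in HDN, and 2 were higher and 8 lower in HDN than in Naive. Of 12 mature neutrophil genes, 3 were higher and 5 lower in LDN than in HDN. In HDN against Naive, 5 of them were higher and 3 lower. Summed over 12 genes of precursor and immature neutrophils such as Ltf, Ngp and Camp, the level was 29376.2 to 41576.3 CPM in LDN, 1984.3 to 3809.8 CPM in HDN and 60210.1 to 65754.1 CPM in Naive. Of these 12 genes, 11 were higher in LDN than in HDN and 12 were lower in HDN than in Naive. These neutrophil lists are not independent of each other. The list of neutrophil genes shares some genes with the mature list and others, Ltf, Ngp and Camp among them, with the precursor and immature list. Monocyte and macrophage genes summed to 573.7 to 770.2 CPM in LDN, 662.1 to 948.2 CPM in HDN and 663.8 to 891.8 CPM in Naive. These sums overlapped, but of the 13 genes 7 were higher and 3 lower in LDN than in HDN, with a median of 2.09 log2, and 5 were higher and 5 lower in HDN than in Naive. Genes of plasmacytoid dendritic cells, a main source of type I interferon, summed to 6.87 to 13.2 CPM in LDN, 4.29 to 9.6 CPM in HDN and 12.6 to 24.8 CPM in Naive, with 2 of 8 at 0 in LDN and 4 of 8 at 0 in HDN, Siglech in both. Of 4 tested plasmacytoid dendritic cell genes, 2 were higher and 2 lower than in Naive, both in HDN and in LDN. The 5 tested T cell genes were split too. Of these, 1 was higher and 2 lower in HDN than in Naive, and 2 were higher and 2 lower in LDN than in Naive. Genes of T cells summed to 32.6 to 49.3 CPM in LDN, 3.66 to 20.4 CPM in HDN and 192.4 to 266.5 CPM in Naive. Those of B cells summed to 1.77 to 7.15 CPM in LDN, 0.458 to 2.7 CPM in HDN and 16.6 to 42.7 CPM in Naive, and those of platelets to 27.9 to 33.1 CPM in LDN, 10.1 to 11.8 CPM in HDN and 111.5 to 121.7 CPM in Naive. NK cell genes summed to 2.0 to 4.44 CPM in LDN, 0.0763 to 1.18 CPM in HDN and 4.43 to 6.81 CPM in Naive. Eosinophil genes summed to 13.7 to 23.2 CPM in LDN, 40.5 to 86.2 CPM in HDN and 14.9 to 64.0 CPM in Naive, most of it from Siglecf in LDN and HDN, with 2 of 4 tested genes lower in LDN than in HDN and the granule gene Epx at 0 in HDN. The part of these markers in the results was not tested, and in such bulk libraries fewer cells of a type and less RNA per cell cannot be told apart.

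The element that ISGF3 binds was looked for in the sequences around the start sites. RefSeq promoters of mouse build GRCm38.p6, each holding 250 bases before and 50 after a start, were found for 23 of the 31 members. The ISRE core was searched as GAAANNGAA on either strand, where it reads TTCNNTTTC on the other. It was present in 14 of these 23 members (60.9%), against 9.76% of all 27025 genes in the table. The GAS core, TTCNNNGAA, was present in 5 of 23 members (21.7%), against 9.55% of all genes, and its match overlapped one of the ISRE core in Bst2 alone among members. These are text matches in a short window and not measured binding. The 7 windows below are the 120 bases that lie before both the RefSeq start and the gene body in GENCODE M21, in the gene's own direction. They are shown because they come from members of different roles and responses, with several cores, 1 core or none, and capitals mark each ISRE core.
Isg15, chr4:156200819-156200938, minus strand: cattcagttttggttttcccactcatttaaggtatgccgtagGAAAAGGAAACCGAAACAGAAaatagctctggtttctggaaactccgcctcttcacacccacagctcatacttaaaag
Oas3, chr5:120777662-120777781, minus strand: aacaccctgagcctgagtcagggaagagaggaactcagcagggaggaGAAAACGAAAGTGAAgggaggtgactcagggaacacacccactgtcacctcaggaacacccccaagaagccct
Oas1a, chr5:120907526-120907645, minus strand: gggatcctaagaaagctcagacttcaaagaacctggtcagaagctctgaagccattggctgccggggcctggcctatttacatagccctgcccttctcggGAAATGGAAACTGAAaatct
Gbp3, chr3:142559906-142560025, plus strand: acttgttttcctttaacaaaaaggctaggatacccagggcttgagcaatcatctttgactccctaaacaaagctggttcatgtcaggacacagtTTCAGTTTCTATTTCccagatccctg
Ifih1, chr2:62646256-62646375, minus strand: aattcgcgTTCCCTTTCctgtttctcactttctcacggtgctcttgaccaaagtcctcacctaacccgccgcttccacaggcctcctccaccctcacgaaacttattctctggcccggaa
Rsad2, chr12:26456453-26456572, minus strand: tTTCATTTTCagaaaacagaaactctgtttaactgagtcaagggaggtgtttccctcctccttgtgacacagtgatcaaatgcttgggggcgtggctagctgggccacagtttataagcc
Cmpk2, chr12:26469084-26469203, plus strand: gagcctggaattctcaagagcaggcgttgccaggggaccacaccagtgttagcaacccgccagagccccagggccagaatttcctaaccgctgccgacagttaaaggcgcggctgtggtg
Counted back from the RefSeq start, Isg15 had overlapping cores that began 78, 72 and 66 bases before it, and Oas3 had them at 75 and 69. In Oas1a they began 20 and 14 bases before the start, and in Gbp3 44 and 38 bases before it on the opposite strand. Ifih1 had 1 core before its start, at 112 bases, and Rsad2 had 1 at 119 bases. Cmpk2, which neighbours Rsad2 on chromosome 12, had none in the full window. Of the members with a promoter, a core was found in 8 of the 13 that were lower in LDN than in HDN and in 5 of the 9 tested members that were not called.

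The plot of levels by library sets the 29 tested members side by side.

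**Figure D1:**
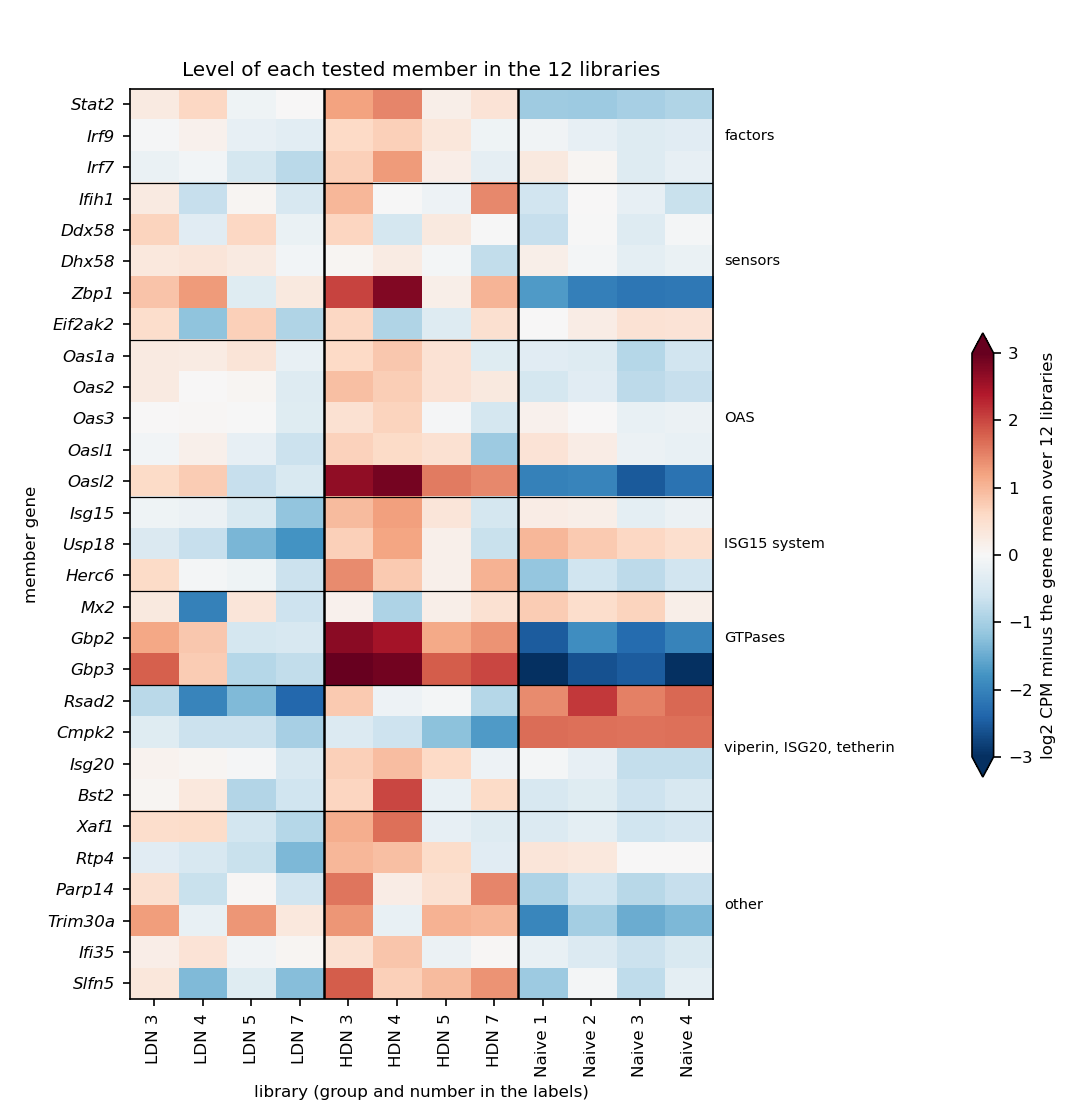
Heat map of log2 CPM of each tested member (rows, grouped by role) in the 12 libraries (columns: LDN, HDN, Naive), as the difference from that gene's mean over all 12. Gbp2, Gbp3, Oasl2 and Zbp1 are highest in HDN 3 and HDN 4 and lowest in Naive, while Rsad2 and Cmpk2 are highest in the 4 Naive libraries.

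As a share of all counts, the members took 0.194% ± 0.0367 in LDN, 0.385% ± 0.102 in HDN and 0.194% ± 0.0131 in Naive (SD, n = 4 each). The share was 0.237%, 0.208%, 0.176% and 0.153% in LDN 3, 4, 5 and 7, against 0.469%, 0.476%, 0.284% and 0.31% in HDN 3, 4, 5 and 7, and 0.191%, 0.212%, 0.18% and 0.192% in Naive 1 to 4. By this unscaled share every HDN library lay above every LDN and Naive library. Within LDN and HDN the libraries numbered 3 and 4 lay above those numbered 5 and 7. After TMM scaling the summed levels of LDN and HDN overlapped, with HDN 7 at 2419.2 CPM below LDN 3 at 2619.9 CPM. These shares are a description and were given no test.

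In LDN, interferon-stimulated genes were lower than in HDN or did not pass the test. Of the 29 tested members, 18 fell, 0 rose and 11 were not called, where 20.3% of all tested genes were lower and 26.0% were higher. The median log2 fold change of the members was -0.73, against 0.02 over all tested genes. The largest falls were those of the GTPase gene Gbp3 (-2.22 ± 0.57 log2, SE), the synthetase gene Oasl2 (-2.08 ± 0.37), the schlafen gene Slfn5 (-1.76 ± 0.37) and Gbp2 (-1.65 ± 0.42). For 4 of the 29 members, Oas2, Oasl2, Gbp3 and Slfn5, every LDN library lay below every HDN library, and for 0 every LDN library lay above. This is a smaller share than among all tested genes, of which 39.2% had no overlap between these groups in either direction. All p-values below are from edgeR's quasi-likelihood test on all 12 libraries, adjusted by Benjamini-Hochberg over the 10604 genes and called under 0.05, and fold changes carry SE with n = 4 in each group. The count of 0 higher members stood also at an unadjusted p under 0.05, with DESeq2 and with limma-voom, and became 1 without the filter on low counts (Mx1, at 19 reads in LDN against 4 in HDN) and 1 with the replicate number as a block (Dhx58).

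The count of lower members depended on single libraries of HDN and LDN. It was 12 without HDN 3 and 20 without HDN 7, the lowest and highest of the 12 fits that each left out 1 library. It was 13 without HDN 4 or LDN 7, and 14 without LDN 5, with limma-voom or with only the 2 groups compared. The 11 members that were called lower under all 19 alternatives were Irf7, Oas2, Oasl2, Isg15, Usp18, Gbp2, Gbp3, Rsad2, Rtp4, Parp14 and Slfn5. In the authors' deposited table of this comparison, 18 tested members were lower and 0 higher at an adjusted p under 0.05.

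HDN and LDN share the numbers 3, 4, 5 and 7, and over all tested genes libraries of the same number deviated together. Taking LDN minus HDN within each number, 25, 27, 20 and 23 of the 29 members were lower in LDN for the numbers 3, 4, 5 and 7, with medians of -0.74, -0.88, -0.42 and -0.69 log2. All 4 pairs were lower in LDN for 18 members, against 29.0% of all tested genes. Dhx58 was the single member that was higher in LDN in all 4 pairs, a pattern of 36.3% of all tested genes.

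**Figure D2:**
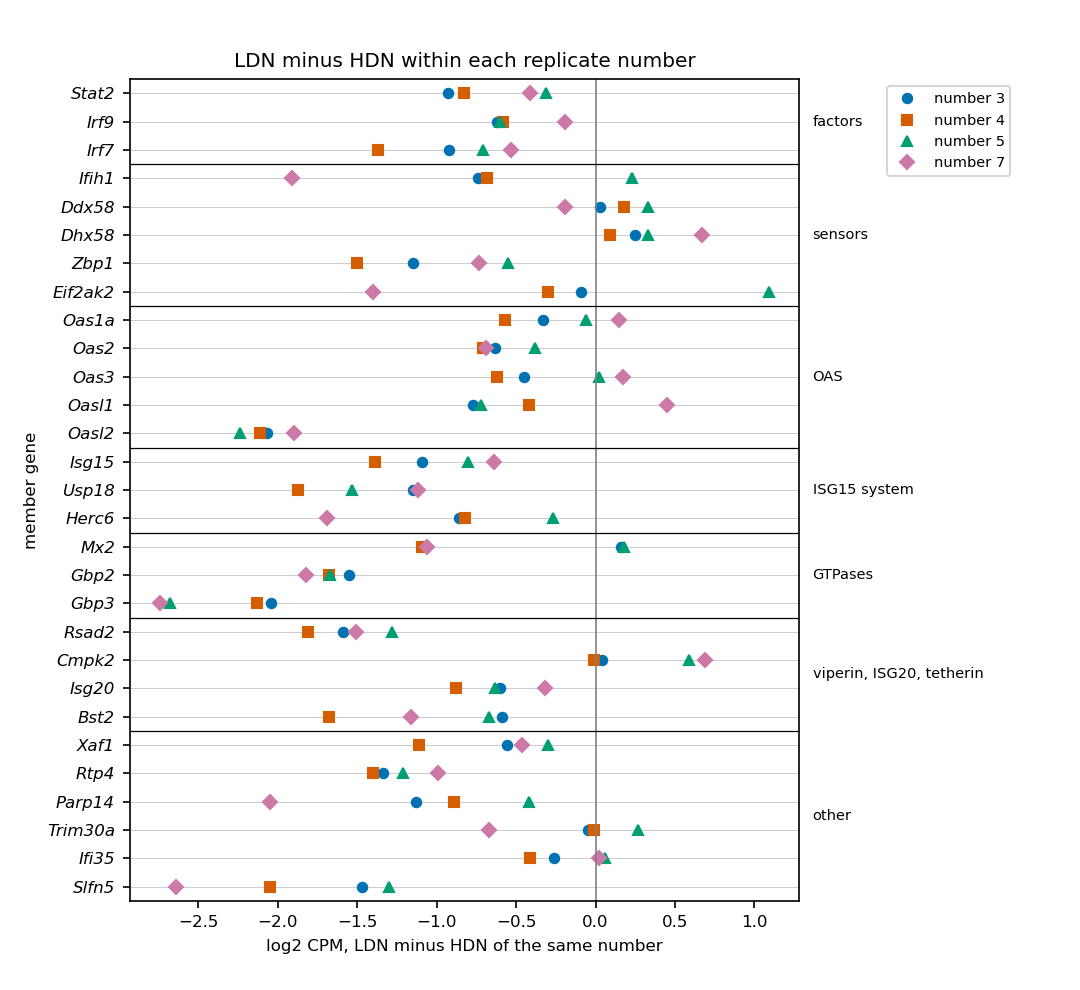
Difference in log2 CPM, LDN minus HDN, between libraries of the same number (4 markers per gene) for the 29 tested members, with genes in rows by role and a vertical line at 0. Oasl2 lies between -2.24 and -1.90 and Rtp4 between -1.40 and -0.99 in the 4 pairs, while Eif2ak2 and Ifih1 scatter on both sides of 0.

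Compared with Naive, most interferon-stimulated genes were higher in HDN. Of the 29 tested members, 17 rose, 2 fell and 10 were not called, where 30.0% of all tested genes were higher and 29.9% were lower. The median log2 fold change was 0.96 for the members and 0.04 for all tested genes. The rises were largest for Gbp3 (6.03 ± 0.74 log2), Oasl2 (4.43 ± 0.41), Gbp2 (4.23 ± 0.47) and the nucleic acid sensor gene Zbp1 (3.82 ± 0.50). Both members that fell are neighbours in the genome, Cmpk2 (-2.57 ± 0.24) and Rsad2 (-1.68 ± 0.36). HDN libraries lay wholly above Naive for 12 members and wholly below for 2, and 53.3% of all tested genes had no overlap. Leaving out 1 library at a time gave 16 to 21 higher members and 2 lower members in each fit. The authors' deposited table had 17 tested members higher and 2 lower.

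Between LDN and Naive the members divided. Of the 29, 10 rose (34.5%), 4 fell (13.8%) and 15 were not called, where 27.4% of all tested genes were higher and 26.8% were lower, so the share that rose was near that of all genes. The median was 0.31 for the members and 0.01 for all tested genes. Gbp3 (3.81 ± 0.73 log2), Zbp1 (2.65 ± 0.48), Gbp2 (2.59 ± 0.44), Oasl2 (2.35 ± 0.38) and Trim30a (2.23 ± 0.37) were the largest rises. Falls were seen for Rsad2 (-3.23 ± 0.38), Cmpk2 (-2.31 ± 0.23), the ISG15 protease gene Usp18 (-1.73 ± 0.36) and the chaperone gene Rtp4 (-0.85 ± 0.26). LDN libraries lay wholly above Naive for 8 members and wholly below for 4, and 55.3% of all tested genes had no overlap. Under scaling by totals that omit the 20 most abundant genes, the median over all genes moved to -0.28 and that of the members to 0.02, and 6 members were higher, since Oas1a, Oas2, Herc6 and Ifi35 lost their call. All tested genes then split into 1850 higher and 3971 lower in LDN than in Naive, in place of 2910 and 2840. In HDN against Naive the split became 2488 higher and 3678 lower in place of 3177 and 3167, and in LDN against HDN 2245 higher and 2778 lower in place of 2761 and 2153. The 3 comparisons share libraries, so their fold changes are not independent of each other.

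**Figure D3:**
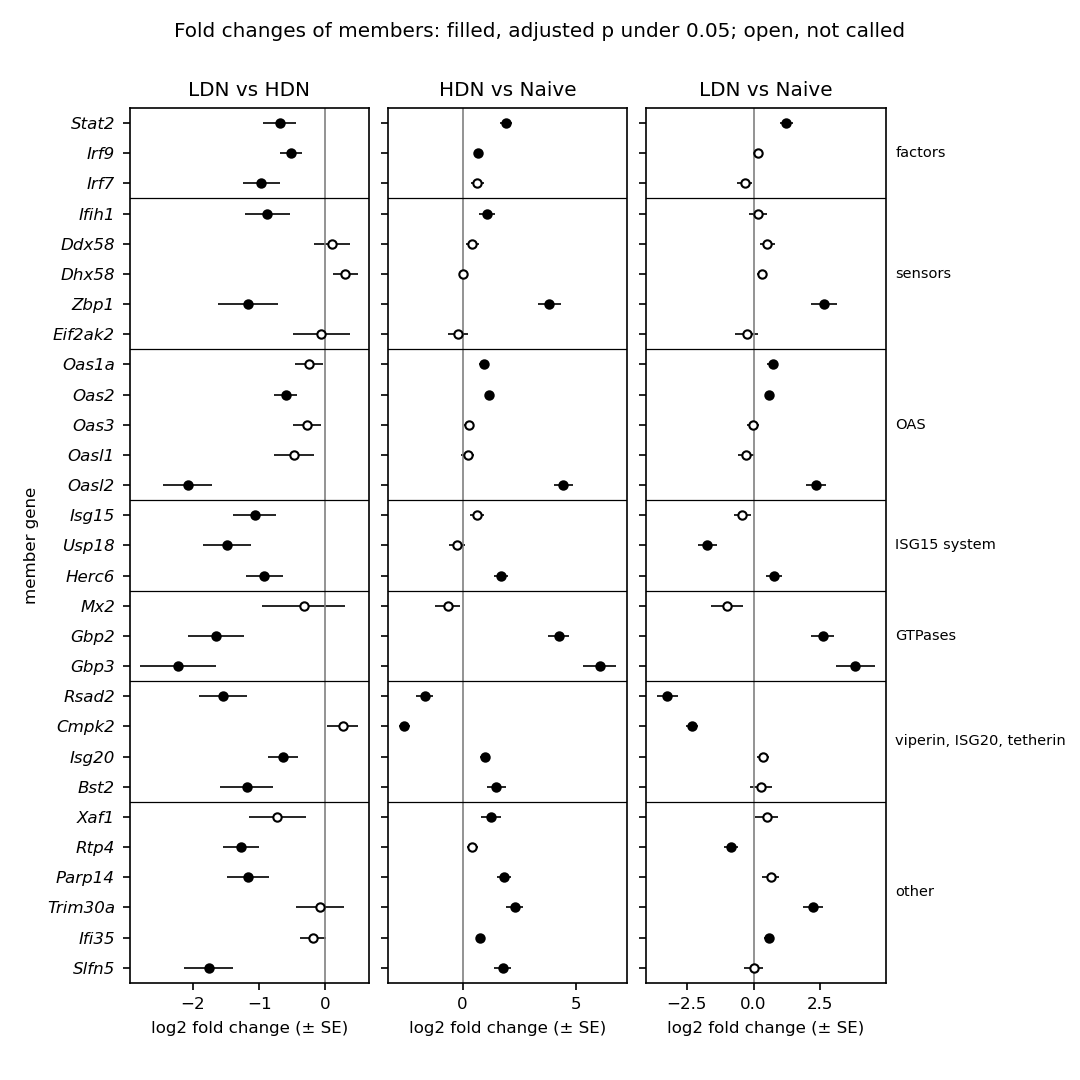
Log2 fold change ± SE of each tested member (rows, by role) for LDN vs HDN, HDN vs Naive and LDN vs Naive, with filled points at an adjusted p under 0.05 and open points not called. Called points lie left of 0 for 18 members in LDN vs HDN and right of 0 for 17 in HDN vs Naive, and each panel has its own axis.

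Among the transcription factors, Stat2 encodes a subunit of ISGF3. Its level was 123.0, 157.9, 93.5 and 102.8 CPM in LDN, 234.6, 281.6, 115.7 and 136.9 CPM in HDN and 49.1, 48.2, 51.4 and 54.5 CPM in Naive, in the order of the numbers 3, 4, 5 and 7 for LDN and HDN and 1 to 4 for Naive, as for all genes below. Every LDN and HDN library lay above every Naive library, while LDN and HDN overlapped. Stat2 fell by 0.69 ± 0.25 log2 in LDN against HDN (adjusted p = 0.0356) and rose by 1.92 ± 0.26 in HDN against Naive (adjusted p = 1.99e-05). The call between LDN and HDN was lost without LDN 5, LDN 7, HDN 3 or HDN 4 (adjusted p = 0.0602 to 0.121), and also with limma-voom (0.057) and with only the 2 groups compared in the fit (0.0645). Stat2 was 1.23 ± 0.25 log2 higher in LDN than in Naive (adjusted p = 0.000964).

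Irf9, the DNA-binding subunit of ISGF3, stood at 178.0, 199.9, 151.9 and 145.5 CPM in LDN, 274.0, 298.7, 230.6 and 166.0 CPM in HDN and 168.8, 153.1, 138.3 and 144.1 CPM in Naive. HDN 7 lay among the LDN libraries and the other 3 HDN libraries lay above all of LDN. Irf9 was lower in LDN than in HDN (-0.52 ± 0.17 log2, adjusted p = 0.0214) and higher in HDN than in Naive (0.68 ± 0.17, adjusted p = 0.00325), and the first call was lost without HDN 3 or HDN 4 (adjusted p = 0.0628 to 0.0636). Irf7, which drives transcription of the interferon alpha genes, measured 150.1, 162.6, 121.0 and 99.3 CPM in LDN, 284.0, 420.3, 197.6 and 143.3 CPM in HDN and 210.5, 180.8, 131.7 and 146.9 CPM in Naive. Its highest library was HDN 4 and its lowest LDN 7. The difference was -0.97 ± 0.28 log2 in LDN against HDN (adjusted p = 0.0125), 0.64 ± 0.28 in HDN against Naive (adjusted p = 0.0624) and -0.33 ± 0.28 in LDN against Naive (adjusted p = 0.338). Without HDN 5, HDN 7 or Naive 1 the rise of Irf7 in HDN over Naive passed the threshold, at adjusted p = 0.00858 to 0.0439, as it did with DESeq2 (0.0463).

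Zbp1, a sensor of Z-form nucleic acid that can start cell death, had the widest range among the sensors. It measured 87.6, 115.9, 37.2 and 59.0 CPM in LDN, 194.7, 328.5, 54.5 and 98.2 CPM in HDN and 14.7, 11.5, 10.7 and 10.8 CPM in Naive. All 4 Naive libraries lay below every library from blood, and HDN 5 lay below 3 of the LDN libraries. Zbp1 was 3.82 ± 0.50 log2 higher in HDN than in Naive (adjusted p = 1.79e-05) and 2.65 ± 0.48 higher in LDN than in Naive (adjusted p = 0.000391). Between LDN and HDN the difference was -1.17 ± 0.45 (adjusted p = 0.0476), a call that was lost in 8 of the 12 fits without 1 library, namely LDN 3, LDN 5, LDN 7, HDN 3, HDN 4, Naive 2, Naive 3 and Naive 4 (adjusted p = 0.0598 to 0.206). It was lost too without the filter on low counts (0.0898), with limma-voom (0.101) and with only the 2 groups compared (0.0915).

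The cytosolic RNA sensors did not move as one. Ifih1 (MDA5), a sensor of long double-stranded RNA, measured 9.98, 5.12, 8.68 and 5.96 CPM in LDN, 16.7, 8.26, 7.38 and 22.6 CPM in HDN and 5.58, 8.41, 7.02 and 5.15 CPM in Naive. HDN 3 and HDN 7 were above all other libraries, and HDN 4 and HDN 5 lay within the range of LDN and Naive. Ifih1 was called lower in LDN than in HDN (-0.88 ± 0.34 log2, adjusted p = 0.0483) and higher in HDN than in Naive (1.07 ± 0.34, adjusted p = 0.0159). The first call was lost with the replicate block (-0.84, adjusted p = 0.0636), with limma-voom (0.098), with only the 2 groups compared (0.0805) and without any of LDN 4, LDN 5, LDN 7, HDN 3, HDN 7, Naive 2, Naive 3 or Naive 4 (0.0528 to 0.186), and the second without HDN 7 (0.0608). Ddx58 (RIG-I), which senses RNA with a triphosphate end, had 57.7 to 116.9 CPM in LDN, 50.8 to 114.6 CPM in HDN and 45.5 to 72.2 CPM in Naive, and no comparison called it. Dhx58 (LGP2), a regulator of both sensors, had 50.2 to 67.4 CPM in LDN, 31.6 to 63.1 CPM in HDN and 43.2 to 59.4 CPM in Naive. It was not called in LDN against HDN (0.30 ± 0.19 log2, adjusted p = 0.207), but passed the threshold with the replicate block (0.28, adjusted p = 0.047). Eif2ak2 (PKR), the kinase that halts translation on double-stranded RNA, had 1.61 to 6.33 CPM in LDN, 2.0 to 5.91 CPM in HDN and 3.86 to 5.19 CPM in Naive and was not called.

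The OAS enzymes sense double-stranded RNA and make short 2'-5' linked oligoadenylates that activate the nuclease RNase L. Among the 5 OAS genes that are members, all on chromosome 5, Oasl2 differed most. Its level was 66.7, 75.5, 27.7 and 32.5 CPM in LDN, 280.4, 325.4, 130.9 and 121.1 CPM in HDN and 10.9, 11.3, 7.73 and 9.59 CPM in Naive. The groups did not overlap in any comparison, with HDN above LDN and LDN above Naive. Oasl2 fell by 2.08 ± 0.37 log2 in LDN against HDN (adjusted p = 0.000541) and was 4.43 ± 0.41 log2 higher in HDN than in Naive (adjusted p = 6.84e-07). Oas2 had the same order of means at a smaller size, with 237.3, 198.7, 204.9 and 150.7 CPM in LDN, 366.2, 325.9, 266.2 and 243.0 CPM in HDN and 137.0, 156.4, 115.0 and 121.7 CPM in Naive. Every HDN library lay above every library of LDN and Naive, while LDN 7 lay within the Naive range. Oas2 differed by -0.60 ± 0.17 log2 in LDN against HDN (adjusted p = 0.0093), by 1.18 ± 0.17 in HDN against Naive (adjusted p = 3.48e-05) and by 0.58 ± 0.17 in LDN against Naive (adjusted p = 0.00923), which ended at 0.29 (adjusted p = 0.104) under totals that omit the 20 most abundant genes.

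The other OAS members differed less between LDN and HDN. Oas1a had 58.4 to 87.9 CPM in LDN, 52.8 to 118.5 CPM in HDN and 37.6 to 53.1 CPM in Naive, and was higher than Naive in HDN (0.96 ± 0.22 log2, adjusted p = 0.00167) and in LDN (0.71 ± 0.22, adjusted p = 0.0127), the second of which ended under totals that omit the 20 most abundant genes (0.42, adjusted p = 0.0598). Oas3 had 406.8 to 533.9 CPM in LDN, 361.8 to 819.1 CPM in HDN and 448.2 to 568.6 CPM in Naive and Oasl1 had 73.1 to 125.8 CPM in LDN, 53.3 to 182.9 CPM in HDN and 97.2 to 151.0 CPM in Naive, and neither was called in any comparison. Oasl1 is known in mice to restrain the translation of Irf7. Without HDN 7, the lowest HDN library of all 3 genes, Oas1a, Oas3 and Oasl1 were called lower in LDN than in HDN (adjusted p = 0.0409, 0.0307 and 0.00591), and Oas3 and Oasl1 were called higher in HDN than in Naive (0.025 and 0.0362). Oas1a has close copies beside it, and reads that fit several copies may have been assigned elsewhere or dropped in the counting. The same limit holds for Gbp2, Gbp3 and Trim30a.

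In the ISG15 system, a ubiquitin-like tag is attached to other proteins by ligases and removed by a protease. Isg15, the tag itself, measured 32, 31.3, 25.7 and 15.5 CPM in LDN, 68.1, 82.5, 44.9 and 24.2 CPM in HDN and 41.3, 39.4, 28.8 and 31.0 CPM in Naive. It was highest in HDN 3 and HDN 4 and lowest in LDN 7, and HDN 7 lay below 3 LDN libraries. Isg15 fell by 1.07 ± 0.32 log2 in LDN against HDN (adjusted p = 0.0148), and was not called in HDN against Naive (0.64 ± 0.32, adjusted p = 0.0955), a rise that passed without HDN 7 (adjusted p = 0.0077). Usp18, which removes the tag and blocks signalling at IFNAR2, measured 9.6, 8.07, 4.95 and 3.72 CPM in LDN, 21.5, 29.8, 14.5 and 8.21 CPM in HDN and 26.2, 22.4, 20.1 and 18.6 CPM in Naive. The 4 LDN libraries lay below all 4 Naive libraries, and HDN overlapped both groups. Usp18 was lower in LDN than in HDN (-1.49 ± 0.36 log2, adjusted p = 0.00451) and lower in LDN than in Naive (-1.73 ± 0.36, adjusted p = 0.00122), with -0.24 ± 0.35 in HDN against Naive (adjusted p = 0.577). Herc6, the main ISG15 ligase in mice, measured 11.7, 7.61, 7.25 and 4.98 CPM in LDN, 21.2, 13.5, 8.76 and 16.2 CPM in HDN and 3.48, 5.17, 4.53 and 5.3 CPM in Naive. All HDN libraries lay above all Naive libraries. Herc6 differed by -0.92 ± 0.28 log2 in LDN against HDN (adjusted p = 0.0178), a call lost without HDN 3 (0.065), and by 1.69 ± 0.29 in HDN against Naive (adjusted p = 0.000207). Its rise in LDN over Naive, 0.77 ± 0.29 (adjusted p = 0.0373), was lost without any of LDN 3, LDN 4, LDN 5, Naive 1, Naive 2 or Naive 3 (0.0549 to 0.197), with limma-voom (0.0718) and under totals that omit the 20 most abundant genes (0.222).

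The guanylate-binding proteins, GTPases that attack the vacuoles of microbes, were both lower in LDN than in HDN and higher than Naive in HDN and in LDN. Gbp2 measured 242.0, 190.0, 74.9 and 77.2 CPM in LDN, 708.1, 610.4, 238.3 and 273.3 CPM in HDN and 19.0, 29.8, 21.6 and 26.8 CPM in Naive. Naive lay far below both blood groups, and LDN 3 lay just above HDN 5. Gbp2 was 4.23 ± 0.47 log2 higher in HDN than in Naive (adjusted p = 3.48e-06), 2.59 ± 0.44 higher in LDN than in Naive (adjusted p = 0.000216) and -1.65 ± 0.42 in LDN against HDN (adjusted p = 0.00589). Gbp3 measured 9.48, 4.57, 1.43 and 1.58 CPM in LDN, 39.4, 20.3, 9.59 and 11.1 CPM in HDN and 0.229, 0.369, 0.407 and 0.202 CPM in Naive. The groups did not overlap in any comparison, though all 4 Naive libraries together held only 28 reads of the gene. Its differences were -2.22 ± 0.57 log2 in LDN against HDN (adjusted p = 0.00595) and 6.03 ± 0.74 in HDN against Naive (adjusted p = 9.23e-06). Of the dynamin-like GTPases, Mx2 had 18 reads in LDN, 27 in HDN and 39 in Naive and was not called. Mx1 had 19 reads in LDN, 4 in HDN and 9 in Naive, and Balb/c is among the many inbred strains known to carry a defective Mx1.

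Rsad2 (viperin), an enzyme that makes a chain-terminating nucleotide, and its neighbour Cmpk2, a nucleotide kinase, were lower than Naive in HDN and in LDN. Rsad2 measured 9.27, 4.06, 6.38 and 3.07 CPM in LDN, 28.0, 14.5, 15.6 and 8.89 CPM in HDN and 43.2, 70.7, 46.0 and 53.8 CPM in Naive. Naive lay above HDN without overlap, and HDN 7 lay just below LDN 3. Rsad2 fell by 1.55 ± 0.36 log2 in LDN against HDN (adjusted p = 0.00367), by 1.68 ± 0.36 in HDN against Naive (adjusted p = 0.00107) and by 3.23 ± 0.38 in LDN against Naive (adjusted p = 1.02e-05). Cmpk2 measured 41.1, 34.1, 33.9 and 26.5 CPM in LDN, 39.9, 34.5, 22.4 and 16.4 CPM in HDN and 170.2, 167.8, 164.1 and 168.4 CPM in Naive. The 4 Naive libraries stood close together and above every library from blood, while LDN and HDN overlapped. Cmpk2 fell by 2.57 ± 0.24 log2 in HDN against Naive (adjusted p = 5.87e-07) and by 2.31 ± 0.23 in LDN against Naive (adjusted p = 2.55e-06), and its difference between LDN and HDN was 0.26 ± 0.23 (adjusted p = 0.36).

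**Figure D4:**
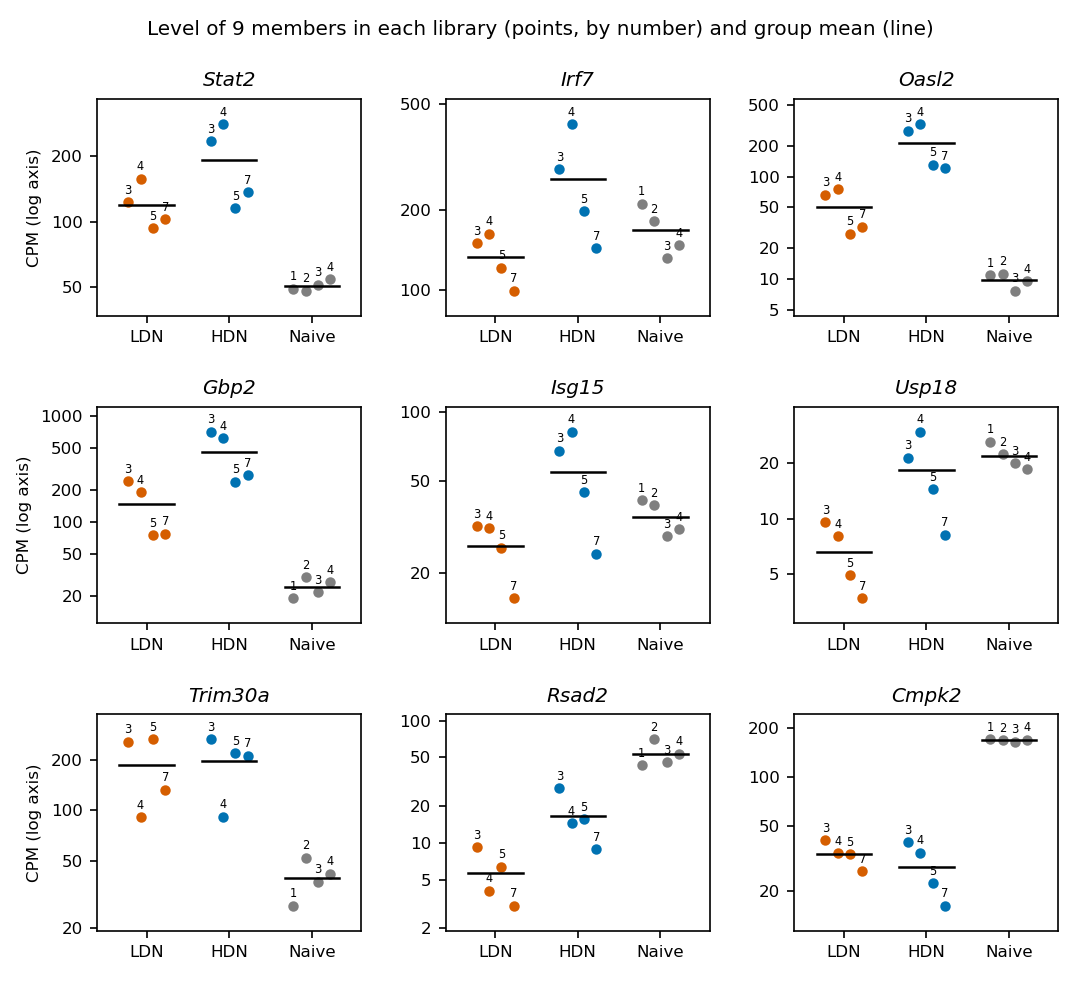
CPM on a log axis for 9 members in each library, as points marked by replicate number, with the group mean as a line (LDN, HDN and Naive from left to right). Stat2, Oasl2, Gbp2 and Trim30a are lowest in Naive, Rsad2 and Cmpk2 are highest there, and Usp18 is lowest in LDN.

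Isg20, an exonuclease that degrades single-stranded RNA, had 17.0 to 25.6 CPM in LDN, 21.3 to 45.4 CPM in HDN and 14.4 to 22.6 CPM in Naive. It was -0.64 ± 0.23 log2 in LDN against HDN (adjusted p = 0.033) and 0.98 ± 0.23 in HDN against Naive (adjusted p = 0.00218), and the first call was lost without LDN 7, HDN 3, HDN 4 or HDN 5 (adjusted p = 0.059 to 0.0896). Bst2 (tetherin), which holds budding virus at the cell surface, measured 5.68, 6.83, 2.91 and 3.58 CPM in LDN, 8.58, 22.0, 4.68 and 8.09 CPM in HDN and 3.9, 4.21, 3.51 and 3.89 CPM in Naive. HDN 4 was far above the rest, and HDN 5 lay within the LDN range. Bst2 differed by -1.19 ± 0.40 log2 in LDN against HDN (adjusted p = 0.0257) and by 1.49 ± 0.40 in HDN against Naive (adjusted p = 0.00596). The first of these was lost without LDN 5, LDN 7 or HDN 4 (0.0549 to 0.114), with limma-voom (0.055) and with only the 2 groups compared (0.0578).

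Of the remaining members, Slfn5, a schlafen protein that acts in the nucleus, measured 41.8, 13.1, 25.7 and 13.5 CPM in LDN, 116.0, 54.3, 63.5 and 84.7 CPM in HDN and 15.6, 31.8, 19.3 and 26.9 CPM in Naive. HDN lay above both other groups without overlap, and the Naive values lay within the range of LDN. Slfn5 differed by -1.76 ± 0.37 log2 in LDN against HDN (adjusted p = 0.00177), by 1.77 ± 0.37 in HDN against Naive (adjusted p = 0.00099) and by 0.01 ± 0.36 in LDN against Naive (adjusted p = 0.989). Parp14, an enzyme that adds ADP-ribose to proteins, measured 56.9, 25.3, 41.7 and 27 CPM in LDN, 124.4, 46.9, 56.0 and 111.7 CPM in HDN and 21.4, 26.6, 22.8 and 25.1 CPM in Naive. HDN 3 and HDN 7 were the highest, and LDN 3 lay above HDN 4 and HDN 5. Parp14 was lower in LDN than in HDN (-1.17 ± 0.32 log2, adjusted p = 0.00869) and higher in HDN than in Naive (1.82 ± 0.32, adjusted p = 0.000255). Its difference between LDN and Naive, 0.65 ± 0.32 (adjusted p = 0.0972), was called with only the 2 groups compared (0.04). Rtp4, a chaperone of receptors with an antiviral role, measured 75.7, 68.3, 60.5 and 37.8 CPM in LDN, 191.2, 179.9, 140.1 and 75.1 CPM in HDN and 123.3, 119.9, 96.7 and 96.5 CPM in Naive. LDN lay wholly below Naive, and HDN 7 was the lowest HDN library. Rtp4 was lower in LDN than in HDN (-1.27 ± 0.27 log2, adjusted p = 0.00164) and than in Naive (-0.85 ± 0.26, adjusted p = 0.0146). In HDN against Naive its difference of 0.43 ± 0.26 (adjusted p = 0.176) was called higher without HDN 7 (0.0137).

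Trim30a, known in mice to restrain NF-kappaB signalling, was higher than Naive in both blood groups. It measured 255.9, 91.0, 265.9 and 133.2 CPM in LDN, 264.7, 91.8, 219.8 and 211.9 CPM in HDN and 27.2, 52.5, 37.8 and 42.1 CPM in Naive. LDN 4 and HDN 4 had nearly the same level and were the lowest of their groups, yet lay above every Naive library. Trim30a differed by -0.08 ± 0.36 log2 in LDN against HDN (adjusted p = 0.874), by 2.30 ± 0.37 in HDN against Naive (adjusted p = 0.00012) and by 2.23 ± 0.37 in LDN against Naive (adjusted p = 0.000206). Ifi35 had 27.9 to 40.2 CPM in LDN, 26.9 to 53.5 CPM in HDN and 19.4 to 25.7 CPM in Naive. It was higher than Naive in HDN (0.77 ± 0.20 log2, adjusted p = 0.0044) and in LDN (0.58 ± 0.20, adjusted p = 0.024), and the call in LDN was lost without LDN 3, LDN 4, Naive 2, Naive 3 or Naive 4 (0.0517 to 0.0911) and under totals that omit the 20 most abundant genes (0.215). Xaf1, a pro-apoptotic partner of XIAP, had 5.91 to 15.8 CPM in LDN, 8.17 to 34.0 CPM in HDN and 7.02 to 8.82 CPM in Naive. Its rise in HDN over Naive was 1.24 ± 0.43 log2 (adjusted p = 0.0245), lost without HDN 3, HDN 4, Naive 3 or Naive 4 (0.0552 to 0.105) and with limma-voom (0.0819). In LDN against HDN Xaf1 was not called (-0.73 ± 0.43, adjusted p = 0.177), but was with the replicate block (-0.67, adjusted p = 0.00629). Ifi44 had 25 reads in LDN, 6 in HDN and 14 in Naive.

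Set against the length of the merged exons in GENCODE M21, the order of levels differed by group. In LDN the members with most CPM per kb were Oas3 at 70.0, Gbp2 at 58.0 and Trim30a at 45.4. In HDN they were Gbp2 at 181.9, Oas3 at 84.9 and Isg15 at 72.6. In Naive they were Oas3 at 70.8, Rtp4 at 51.2 and Isg15 at 46.4, with Gbp2 at 9.66. Oas3 thus stood near the top in every group although no comparison called it. These lengths are approximate, because the annotation used for the counting is not known here.

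Members did not vary together as 1 block from library to library. Libraries numbered 4 were the highest of both LDN and HDN for 10 members, Stat2, Irf9, Irf7, Dhx58, Zbp1, Oas3, Oasl2, Bst2, Xaf1 and Ifi35. They were the lowest of both groups for 6 others, Ddx58, Eif2ak2, Mx2, Parp14, Trim30a and Slfn5. Libraries numbered 3 were the highest of both for 10 members, among them Gbp2, Gbp3, Rsad2 and Slfn5, and the lowest of both for 0. Those numbered 7 were the lowest of both for 14 members, among them Irf7, Isg15, Usp18, Rsad2 and Rtp4. The median deviation of the members from their group mean was -0.39 log2 in LDN 7 and -0.58 in HDN 7, where over all tested genes it was -0.01 and -0.05. The counts of members highest or lowest in both groups have no share of all tested genes beside them. Over all tested genes, same-number libraries of LDN and HDN also deviated together (correlations of 0.315 to 0.76). These counts can therefore not be read as particular to the members. What a number stands for is not stated in the labels.

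Around the members, 160 other genes of interferon sensing, signalling and response had a row, and 134 were tested. Of these, 23 were higher and 45 lower in LDN than in HDN, with a median of -0.33 log2. In HDN against Naive, 64 were higher and 23 lower, with a median of 0.43. In LDN against Naive, 45 were higher and 20 lower, with a median of 0.18, and 36 were lower under scaling by totals that omit the 20 most abundant genes. The shares of all tested genes given above are the level to read these counts against.

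**Figure D5:**
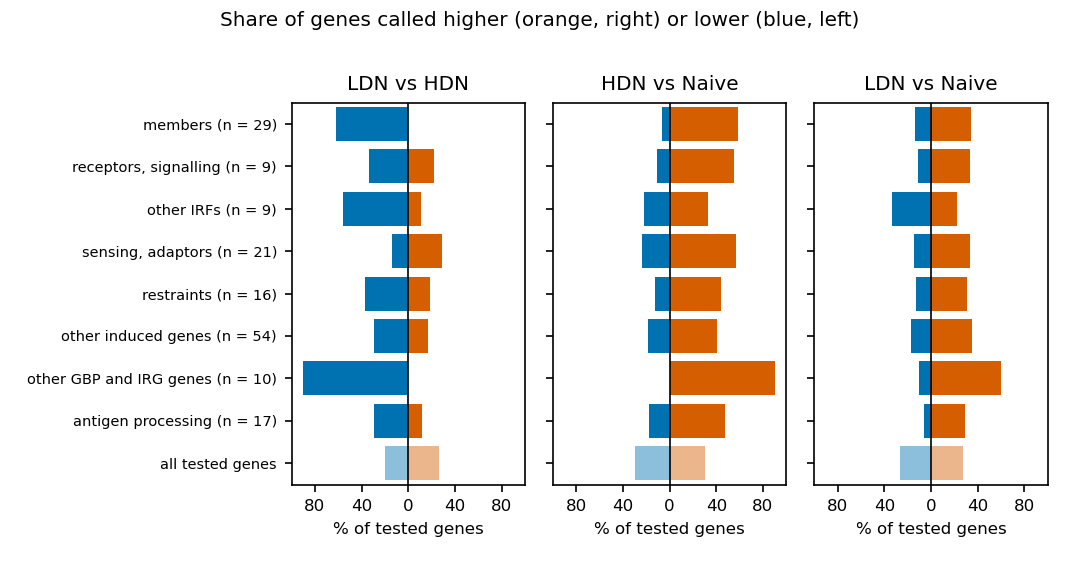
Share of tested genes called higher (right, orange) or lower (left, blue) in the members, in 7 other interferon lists and in all tested genes (pale), for LDN vs HDN, HDN vs Naive and LDN vs Naive. In LDN vs HDN, lower calls reach 62.1% of the members and 9 of the 10 other guanylate-binding and immunity-related GTPase genes, against 20.3% of all tested genes.

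Interferon genes themselves were close to unread. Of 10 ligand genes with a row, Ifnk had 1 read, in HDN 7, and Ifng had 1 read, in Naive 4. Ifnb1, Ifna1, Ifna2, Ifna4, Ifna5, Ifne, Ifnl2 and Ifnl3 had 0 reads in every library, which allows a level of up to 0.0954 to 0.153 CPM per library, by counting error only. Among the 9 receptor and signalling genes tested, 2 were higher and 3 lower in LDN than in HDN (5 lower without HDN 7 or under totals that omit the 20 most abundant genes), and 5 were higher and 1 lower in HDN than in Naive (3 lower under those totals). The receptor gene Ifnar1 was lower in LDN than in HDN (-0.49 ± 0.12 log2, adjusted p = 0.00513), and Ifnar2 was not called (-0.21 ± 0.12, adjusted p = 0.161) except without HDN 7 (-0.30, adjusted p = 0.0282) or Naive 1 (-0.27, 0.0497), with the replicate block (-0.25, 0.0452) and under totals that omit the 20 most abundant genes (-0.35, 0.00181). Tyk2 was higher in LDN than in HDN (0.60 ± 0.11 log2, adjusted p = 0.000907), as was Ifnlr1, a receptor chain for interferon lambda (0.78 ± 0.15, adjusted p = 0.000989). Against Naive, Tyk2 was higher in LDN (0.64 ± 0.11, adjusted p = 0.000333) and Ifnlr1 was lower (-1.05 ± 0.15, adjusted p = 5.75e-05).

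Among 9 other interferon regulatory factors and their binding partners, 5 were lower and 1 higher in LDN than in HDN. Irf1, which carries much of the response to interferon gamma, averaged 307.8 ± 90.9 CPM in LDN, 606.4 ± 192.8 CPM in HDN and 161.9 ± 18.4 CPM in Naive (SD, n = 4 each, as for the means below). It was lower in LDN than in HDN (-0.98 ± 0.23 log2, adjusted p = 0.00408) and higher than Naive in HDN (1.91 ± 0.24, adjusted p = 1.18e-05) and LDN (0.93 ± 0.23, adjusted p = 0.00431). Irf8, a factor of monocyte and dendritic cell development, was the gene that was higher in LDN, at 5.05 ± 1.39 CPM against 0.419 ± 0.289 CPM in HDN (3.61 ± 0.45 log2, adjusted p = 3.18e-05). Naive averaged 4.25 ± 1.41 CPM of Irf8. The gene was lower in HDN than in Naive (-3.35 ± 0.45 log2, adjusted p = 1.98e-05) and not called in LDN against Naive (0.26 ± 0.37, adjusted p = 0.584). Irf2, a repressor of interferon responses, was lower in LDN than in HDN (-0.56 ± 0.12 log2, adjusted p = 0.00179), as was its partner gene Irf2bp2 (-0.76 ± 0.13, adjusted p = 0.000407). Irf2bpl averaged 34.1 ± 7.38 CPM in LDN, 67.5 ± 14.8 CPM in HDN and 1.14 ± 0.135 CPM in Naive, and was lower in LDN than in HDN (-0.98 ± 0.18 log2, adjusted p = 0.000752) but higher in both than in Naive (5.88 ± 0.24 in HDN, adjusted p = 3.61e-10, and 4.90 ± 0.23 in LDN, adjusted p = 2.1e-09).

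The other guanylate-binding and immunity-related GTPase genes, typical targets of interferon gamma, fell in LDN against HDN for 9 of 10 tested and rose for 0, with a median of -2.17 log2. With edgeR at an unadjusted p under 0.05, 10 were lower and 0 higher, and DESeq2 and limma-voom called 9 and 8 lower and 0 higher. The lower count depended on single libraries, at 6 without HDN 4 and 11 without HDN 5, a fit that tested more genes (10805). In HDN against Naive 9 rose and 0 fell at a median of 3.49, with 0 lower also at an unadjusted p under 0.05 by edgeR and by DESeq2 and limma-voom, and in LDN against Naive 6 rose and 1 fell. The rises in LDN over Naive numbered 4 without LDN 3 and 7 without LDN 5. Gbp5 averaged 2.76 ± 2.15 CPM in LDN, 20.6 ± 12.6 CPM in HDN and 0.63 ± 0.255 CPM in Naive, a difference of -2.89 ± 0.60 log2 in LDN against HDN (adjusted p = 0.00155). Gbp7 differed by -2.60 ± 0.42 log2 in LDN against HDN (adjusted p = 0.000232) and by 2.61 ± 0.42 in HDN against Naive (adjusted p = 0.000101). Irgm1, a GTPase of autophagy, averaged 69.3 ± 29.3 CPM in LDN, 188.4 ± 84.9 CPM in HDN and 19.8 ± 3.0 CPM in Naive, and was lower in LDN than in HDN (-1.44 ± 0.34 log2, adjusted p = 0.00341). Gbp9 was lower in LDN than in Naive (-3.14 ± 0.29 log2, adjusted p = 1.04e-06) and lower in LDN than in HDN (-2.81 ± 0.29, adjusted p = 6.87e-06).

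Of 21 tested sensing and adaptor genes upstream of interferon, 6 were higher (28.6%) and 3 lower (14.3%) in LDN than in HDN. Both shares were near those of all tested genes, 26.0% and 20.3%. The lower count was 5 without HDN 4 or HDN 5. Ticam2, an adaptor of Toll-like receptor 4, was higher in LDN than in HDN (2.61 ± 0.22 log2, adjusted p = 1.71e-06), as were the kinase gene Ikbke (1.55 ± 0.19, adjusted p = 2.56e-05) and Tmem173 (STING, 1.02 ± 0.19, adjusted p = 0.000679), while Nod2 was lower (-1.03 ± 0.18, adjusted p = 0.000404). Ticam2 was not called in LDN against Naive (-0.06 ± 0.20, adjusted p = 0.83). Ikbke (1.64 ± 0.19, adjusted p = 7.5e-06) and Tmem173 (2.5 ± 0.20, adjusted p = 2.96e-07) were higher in LDN than in Naive. In HDN against Naive 12 of the 21 rose and 5 fell. Of 16 tested restraints on interferon signalling, 3 were higher and 6 lower in LDN than in HDN (3 lower without HDN 3), with Socs3, an inhibitor of JAK signalling, at -1.47 ± 0.22 log2 (adjusted p = 0.000158) and Cish, its relative, at 2.05 ± 0.29 (adjusted p = 9.03e-05). Tnfaip3 (A20), a brake on NF-kappaB, was lower in LDN than in HDN (-1.68 ± 0.27 log2, adjusted p = 0.000232) and Rnaseh2b, a subunit of RNase H2, was higher (1.79 ± 0.28, adjusted p = 0.00019). Cish was also higher in LDN than in Naive (3.13 ± 0.31, adjusted p = 2.08e-06). Rnaseh2b was lower in LDN than in Naive (-0.84 ± 0.26, adjusted p = 0.014), a call lost without Naive 3 (0.055). A list of 54 other induced genes held 9 higher and 16 lower in LDN than in HDN and 22 higher and 10 lower in HDN than in Naive. This list shares Ifi47 with the GTPase list above and Nlrc5 with the antigen processing list below. Ddx60, a helicase, was lower in LDN than in HDN (-1.81 ± 0.33 log2, adjusted p = 0.000623) and lower in HDN than in Naive (-1.25 ± 0.31, adjusted p = 0.00337), whereas Sp110, a nuclear body protein, was higher in LDN than in HDN (0.99 ± 0.17, adjusted p = 0.000403). Trim14 was higher too (1.06 ± 0.20, adjusted p = 0.000879), and Slfn8, of the schlafen family like Slfn5, was lower (-2.04 ± 0.35, adjusted p = 0.00039). Sp110 was not called in LDN against Naive (0.07 ± 0.17, adjusted p = 0.744). Trim14 was lower in LDN than in Naive (-0.58), a call lost with the replicate block (-0.41, adjusted p = 0.0823).

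Antigen processing genes that respond to interferon gamma were lower in LDN than in HDN for 5 of 17 tested and higher for 2. The lower count was 9 with the replicate block, and the higher count was 4 without HDN 4 and 1 without any of the LDN libraries, HDN 3, HDN 5, HDN 7, Naive 2 or Naive 3. B2m, the shared chain of MHC class I, averaged 621.2 ± 62.5 CPM in LDN, 876.5 ± 167.6 CPM in HDN and 629.2 ± 34.4 CPM in Naive. It was lower in LDN than in HDN (-0.50 ± 0.14 log2, adjusted p = 0.00972), as was Nlrc5, the activator of MHC class I genes (-2.14 ± 0.62, adjusted p = 0.0121). H2-K1, a class I heavy chain, differed by -1.0 ± 0.28 log2 (adjusted p = 0.0102) and Tapbp, which helps load its peptides, by -0.76 ± 0.21 (adjusted p = 0.00919). In HDN against Naive 8 of the 17 rose and 3 fell.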

How the data were processed

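RNA was measured by sequencing in 12 libraries of mouse neutrophils, 4 each of LDN, HDN and Naive. Per the labels' protocols, RNA was extracted with TriZol and a column kit, and a stranded kit was used on polyadenylated RNA. The submitters' processing notes name CASAVA 1.8.2, Trimmomatic, STAR and DESeq2 1.16.1. The sources used here give no build, annotation or strand setting for the counting. Reads of a gene and of one that overlaps it, on the same or the opposite strand, cannot be separated.

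The authors deposited a table of raw counts per gene symbol, not normalized, and 3 tables of comparisons made with DESeq2. Those tables hold, per the file headers, the mean signal (normalized counts), log2 fold changes and their standard errors, a score (the test statistic), and raw and adjusted p-values. From them only numbers of members by direction are given, named as the authors'.

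The counts were tested with edgeR 4.0.16 in R 4.3.3 (limma 3.58.1): filterByExpr by group kept 10604 of 15762 symbols with reads, libraries were scaled by TMM, and a robust quasi-likelihood fit had group as its only term. P-values were adjusted by Benjamini-Hochberg over the 10604 genes. CPM use TMM library sizes, and log2 CPM add a prior count of 2. TMM sets each fold change relative to most other genes, and floors of 3 reads cover counting error only. The fit was tested on simulated data. The 19 alternatives were RLE scaling, library sizes without the 20 most abundant genes, no filter on low counts, DESeq2 1.42.0, limma-voom, only the 2 groups compared, the replicate number as a block, and leaving out each of the 12 libraries.

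HDN and LDN share replicate numbers in the labels. Deviations from the group mean correlated at 0.315 to 0.76 between libraries of the same number and at -0.608 to 0.412 between others. Each same-number value was over 0.1, and the numbers were taken to pair HDN with LDN as an assumption. Some values between different numbers were over 0.1 too, such as 0.412 for LDN 5 with HDN 3. The main fit does not use the pairing. Numbers 3 and 4 of Naive correlated with those of LDN and HDN at -0.127 to 0.16 and were not taken to pair. Between replicates, chi-square divided by the number of genes lay at 3.37 to 193, so no 2 libraries were counted as 1. The value of 3.37 was that of Naive 3 with Naive 4, and the next lowest was 15.7, for Naive 2 with Naive 3. Whether Naive 3 and Naive 4 share a source is not stated in the labels, so the spread within Naive may be partly technical.

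Members, role groups, pathway lists and markers were chosen with earlier results of these data known. The text names every member and, of each pathway list, up to 4 genes with the smallest adjusted p in LDN vs HDN, among those whose mean log2 CPM was 1 or more, plus Irf1, Ifnar1, Ifnar2 and the ligands. The rule also takes 1 gene that is not reported here. Marker lists are given as sums and counts, with S100a8, Ltf, Ngp and Camp as examples. Promoter sequences are from RefSeq. Members were found there by symbol.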

Additional observations from a re-analysis of the deposited data

Results flagged for a closer look

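Within each group of 4 libraries, 87 sets of values were checked for a library far from the other 3, and 2 stood out, where chance alone marks about 1 group in 20. Oas3 was lowest in LDN 7, at 406.8 CPM, while LDN 3, 4 and 5 had 522.1, 533.9 and 515.7 CPM. Oasl1 was lowest in HDN 7, at 53.3 CPM, while HDN 3, 4 and 5 had 182.9, 168.4 and 156.6 CPM. Both libraries carry the number 7, and HDN 7 also had the highest TMM scaling factor of the 12 libraries, 1.284.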

How the results depend on the processing

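Each call was recomputed under the 19 alternatives. Over all these fits, the members' fold changes kept side of the threshold 1562 times, lost the threshold 64 times and gained it 23 times. They turned sign after a call 0 times, and an uncalled fold change that changed sign was counted as kept. Members higher in LDN than in HDN numbered 1 with no filter on low counts and 1 with the replicate number as a block, in place of 0. Under totals that omit the 20 most abundant genes, members higher in LDN than in Naive numbered 6 in place of 10, and the other interferon genes lower there numbered 36 in place of 20. The cause was not tested beyond the shift of the median over all genes that this scaling brings. Leaving out 1 library gave 12 to 20 members lower in LDN than in HDN, 16 to 21 higher in HDN than in Naive, and 8 to 10 higher and 4 lower in LDN than in Naive. With the replicate block, 18 members were lower in LDN than in HDN. In the comparisons with Naive, whose numbers are not known to pair with the others, the block gave 21 members higher in HDN, and 14 higher and 3 lower in LDN, and it gave 13 antigen processing genes higher in HDN in place of 8. Mx1, Mx2 and Ifi44 had few reads, and with no filter on low counts Mx1 was the member called higher in LDN than in HDN.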
